A study of Mus musculus with 33 samples.

Results

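Akr1c18, Ptgfr, Sfrp4, Prlr and Parm1 are 5 genes of luteal function and luteolysis, chosen by symbol from a table of 54347 Ensembl gene IDs, and each symbol matched a single row. Transcript levels were measured by poly(A) RNA sequencing in 33 mouse ovary libraries that fall into 9 groups of 3 experiments. Experiment 1 holds ovaries labelled WT, Fshb(+/-) and Fshb(-/-), with 3 libraries each. Fshb encodes the beta subunit of follicle-stimulating hormone (FSH), a hormone of the pituitary, so the Fshb(-/-) label stands for a mouse without it; the labels name no Cre line. Experiment 2 holds ovaries labelled Fshb(-/-) and ovaries of the same null genotype that carry the human FSHB transgene, written HFSHB in the labels and called rescue below, with 4 libraries each. Both groups of experiment 2 therefore share the null allele, and the promoter of the transgene is not given in the sources used here. Experiment 3 holds ovaries at stages DE, PE and E of the estrous cycle, all labelled WT, and a group with the stage label KO (anestrus), with 4 libraries each. The KO (anestrus) libraries carry KO in their titles and WT as their genotype label, so the labels conflict and the group is called by its stage label here. No cycle stage is named in the titles of experiments 1 and 2, which carry NS in the place of the stage. The labels do not spell out DE, PE and E, and they give no age or strain. Nor do they tie a library to an animal, and p-values refer to the variation among these libraries, part of which may be technical.

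The corpus luteum forms from the ruptured follicle and makes progesterone. In rodents, prolactin acting through its receptor maintains it, and prostaglandin F2 alpha acting through its own receptor starts luteolysis, the loss of progesterone output followed by regression of the structure. Part of that loss is enzymatic, since 20-alpha-hydroxysteroid dehydrogenase turns progesterone into a weak progestin.

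Prlr encodes the prolactin receptor, which signals through JAK2 and STAT5. Ptgfr encodes the prostaglandin F receptor. Akr1c18 encodes 20-alpha-hydroxysteroid dehydrogenase. Sfrp4 encodes a secreted frizzled-related protein that binds WNT ligands and is known from rodent corpora lutea. Parm1 encodes a mucin-like membrane protein first described as an androgen-repressed message of the rat prostate.

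On the GRCm38 build, Akr1c18 (ENSMUSG00000021214.14) lies on the minus strand at chr13:4132615-4150654 and Ptgfr (ENSMUSG00000028036.6) on the minus strand at chr3:151796502-151837630. Sfrp4 (ENSMUSG00000021319.7) lies on the plus strand at chr13:19623104-19632994, Prlr (ENSMUSG00000005268.20) on the plus strand at chr15:10177238-10349180 and Parm1 (ENSMUSG00000034981.9) on the plus strand at chr5:91517615-91626894. All 5 are protein-coding. The annotation gives 1 transcript for Parm1 and 12 for Prlr, so a Prlr value sums several isoforms.

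Upstream sequence was matched for 4 of the 5 members, as RefSeq windows of 250 bases that end at an annotated start on GRCm38.p6. The windows of Akr1c18 and Ptgfr are shown because these genes had the widest range across the groups. A Prlr window is shown because it holds a STAT5-type match in a gene that itself signals through STAT5. They lie at chr13:4150647-4150896 (minus strand), chr3:151837529-151837778 (minus strand) and chr15:10223656-10223905 (plus strand), and capitals mark a motif match.
Akr1c18: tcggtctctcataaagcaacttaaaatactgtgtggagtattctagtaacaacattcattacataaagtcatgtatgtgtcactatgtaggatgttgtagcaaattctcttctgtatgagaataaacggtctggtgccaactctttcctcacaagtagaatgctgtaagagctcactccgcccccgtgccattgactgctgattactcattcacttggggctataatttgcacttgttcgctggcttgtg
Ptgfr: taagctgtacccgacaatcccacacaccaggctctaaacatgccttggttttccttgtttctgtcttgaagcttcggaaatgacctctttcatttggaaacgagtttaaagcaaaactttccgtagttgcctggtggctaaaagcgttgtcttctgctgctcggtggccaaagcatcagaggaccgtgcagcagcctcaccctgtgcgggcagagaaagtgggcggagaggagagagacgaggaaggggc
Prlr: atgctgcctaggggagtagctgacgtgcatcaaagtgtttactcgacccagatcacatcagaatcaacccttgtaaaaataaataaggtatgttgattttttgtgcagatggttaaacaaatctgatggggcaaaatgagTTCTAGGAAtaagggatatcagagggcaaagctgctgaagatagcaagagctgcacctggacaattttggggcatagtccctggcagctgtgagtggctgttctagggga
The motifs searched, on both strands, were the STAT5 motif TTCNNNGAA, the NR5A and NR4A half-site AAGGTCA, the AP-1 motif TGANTCA and the CRE motif TGACGTCA. The Akr1c18, Ptgfr and Parm1 windows held none of these letters. Prlr has 3 annotated starts: the window shown held TTCTAGGAA, from 110 to 102 bases before its start, another held TGAGTCA, and the first held none. Over 32851 RefSeq windows of this length, 7.02% held the STAT5 letters, 4.08% the half-site, 6.75% the AP-1 letters and 1.55% the CRE letters. A match is a run of letters and no evidence that a factor binds there.

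Experiment 1 libraries totalled between 13.6 M and 16.9 M counts, those of experiment 2 between 19.6 M and 23.7 M, and those of experiment 3 between 10.1 M and 15.9 M, and 3 counts equalled between 0.127 and 0.297 CPM (counts per M counts). Levels below are CPM scaled by TMM (trimmed mean of M-values) within an experiment, so levels of different experiments are only set side by side. Fshb itself, the targeted gene, went against the labels of experiment 1: it had 0 to 1 counts in the libraries labelled WT, 43 to 106 in those labelled Fshb(+/-) and 68 to 82 in those labelled Fshb(-/-). It had 119 to 184 counts in Fshb(-/-) and 221 to 431 in rescue libraries of experiment 2, and 90 to 114 in KO (anestrus), 60 to 198 in DE, 0 to 51 in PE and 0 to 170 in E. Every group name and every direction below therefore rests on the labels. Granulosa cell markers were present in all 33 libraries, with a summed level of 910 to 4540 CPM over 7 genes. The sum of 4 theca cell markers was 1050 to 2200 CPM in the libraries labelled Fshb(-/-) or KO (anestrus) and 182 to 1070 CPM in the others, and that of 5 oocyte markers was 412 to 651 CPM against 75.5 to 344 CPM.

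Several libraries stood apart from their groups in some of these genes. WT replicate 3 had levels of Ptgfr, Sfrp4 and Prlr within the range of the Fshb(-/-) libraries. DE replicate 2 was the lowest of its group in Akr1c18, Ptgfr, Sfrp4 and Prlr. E replicate 3 was likewise the lowest of its group in these 4 genes, but in Akr1c18 E replicate 1 was close (29.2 and 33.3 CPM). Fshb(+/-) replicate 1 and PE replicate 2 were far above their groups in Parm1. Values without these libraries stand beside the results that they move. E replicate 2 was the highest of its group in Akr1c18, Ptgfr and Sfrp4, at 1040, 991 and 1660 CPM. Markers of oviduct epithelium, a tissue beside the ovary, differed between libraries: the sum over 8 of them was 3230 to 5560 CPM in the 4 PE libraries, 7410, 4760, 25.4 and 3400 CPM in DE replicates 1 to 4, and 13.5, 21.5, 4720 and 21.3 CPM in E replicates 1 to 4. In these markers DE replicate 3 lay near 3 of the E libraries and E replicate 3 near 3 of the DE libraries. Across genes, the deviations from the group means had r = −0.78 between DE replicate 3 and E replicate 3. They had r = 0.66, 0.48 and 0.2 between DE replicate 3 and E replicates 1, 2 and 4. Between E replicate 3 and the other DE libraries r was 0.37 to 0.47. Within a group the deviations of a gene cancel out, so the negative r makes these other values positive on balance by construction. DE replicate 3 and E replicate 3 were kept in the groups of their labels, and results without the pair are given for the stages. The oviduct marker sum was 33 to 73.8 CPM in KO (anestrus), 26 to 41.9 CPM in WT and 37.9 to 45.2 CPM in Fshb(-/-) of experiment 1. In Fshb(+/-) replicates 1 to 3 it was 19.6, 67.2 and 1330 CPM.

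**Figure D1:**
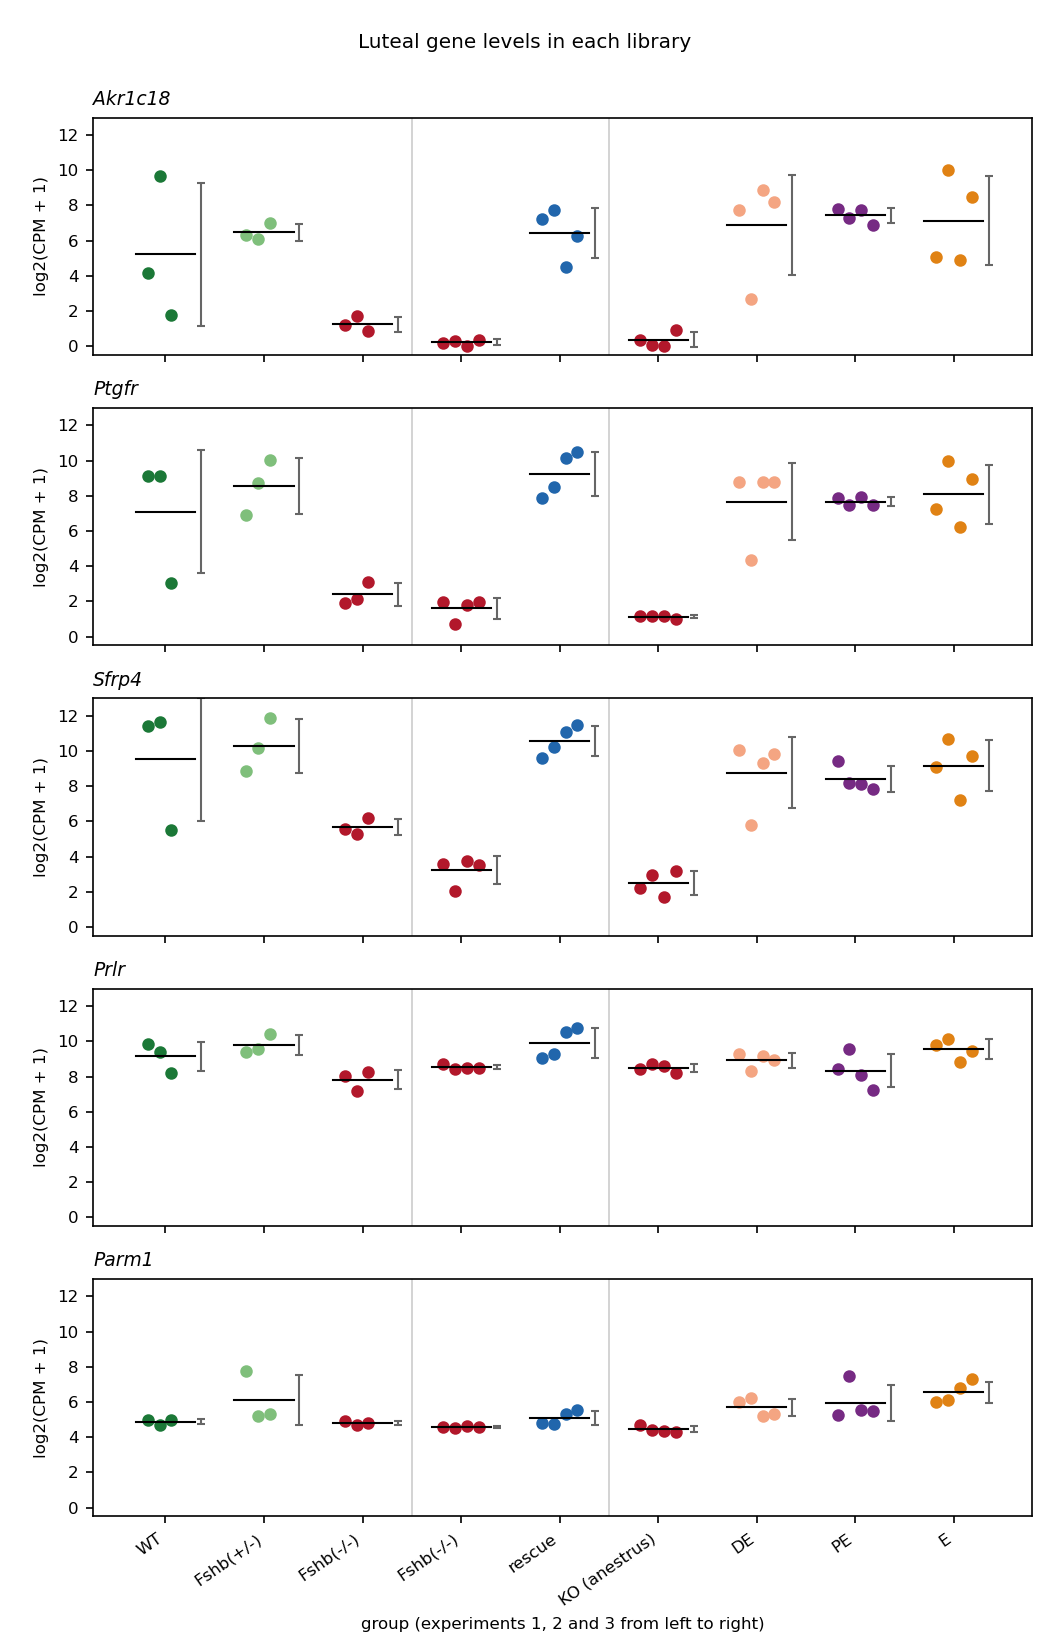
Level of each gene in each library, as log2(CPM + 1), for the 9 groups of experiments 1, 2 and 3 from left to right, separated by grey lines. Points are libraries in replicate order, the black line is the mean of the points and the grey bar beside it is 1 SD. Akr1c18 and Ptgfr sit near the bottom in the Fshb(-/-) and KO (anestrus) groups and far above in most other libraries. Sfrp4 is likewise low in Fshb(-/-) of experiment 2 and KO (anestrus), but at 5.31 to 6.2 in Fshb(-/-) of experiment 1. Prlr and Parm1 have a narrow range.

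Experiment 1 compared ovaries with 2, 1 or 0 labelled functional copies of Fshb. Ptgfr, Sfrp4 and Prlr levels were lower under the Fshb(-/-) label than under the Fshb(+/-) label. Akr1c18 had a few CPM at most in the 3 libraries labelled Fshb(-/-) and in 1 labelled WT, and at least 17.2 CPM in the others, a difference that did not pass the test. Parm1 levels overlapped between WT and Fshb(-/-). In whole-ovary RNA, fewer cells of a type and less RNA per cell cannot be told apart.

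Prlr, the receptor of the luteotropic hormone, had 912, 672 and 293 CPM in WT replicates 1 to 3 (626 ± 312, SD, n = 3), 666, 761 and 1380 CPM in Fshb(+/-) (935 ± 386, n = 3) and 262, 146 and 301 CPM in Fshb(-/-) (236 ± 80.5, n = 3). Fshb(+/-) libraries were all above Fshb(-/-), while WT replicate 3 lay inside the Fshb(-/-) range. By edgeR's quasi-likelihood test with Benjamini-Hochberg adjustment over 17223 genes, Prlr differed between Fshb(-/-) and Fshb(+/-) by −1.98 ± 0.47 on the log2 scale (± SE here and below, adjusted p = 0.0258), and between Fshb(-/-) and WT by −1.40 ± 0.46 (adjusted p = 0.108).

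Ptgfr, the receptor of the luteolytic signal, had 548, 559 and 7.3 CPM in WT (371 ± 315, n = 3), 118, 415 and 1050 CPM in Fshb(+/-) (528 ± 476, n = 3) and 2.79, 3.44 and 7.68 CPM in Fshb(-/-) (4.64 ± 2.66, n = 3). WT replicate 3 was lower than the highest Fshb(-/-) library, and every other WT and Fshb(+/-) library was higher than all Fshb(-/-) libraries. The difference was −6.82 ± 1.6 between Fshb(-/-) and Fshb(+/-) (edgeR adjusted p = 0.0281) and −6.32 ± 1.6 between Fshb(-/-) and WT (adjusted p = 0.0536).

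Akr1c18, whose enzyme inactivates progesterone, had 17.2, 827 and 2.43 CPM in WT (282 ± 472, n = 3), 78.1, 67.5 and 128 CPM in Fshb(+/-) (91.2 ± 32.3, n = 3) and 1.27, 2.27 and 0.799 CPM in Fshb(-/-) (1.45 ± 0.752, n = 3). WT replicate 2 alone carried most of the WT mean, and WT replicate 3 was barely above the highest Fshb(-/-) library, so that the groups did not overlap. Fshb(-/-) differed from WT by −7.63 ± 2.14 (edgeR adjusted p = 0.0727) and from Fshb(+/-) by −6.00 ± 2.04 (adjusted p = 0.0828), neither past the threshold of 0.05. Without WT replicate 2 the first difference was −2.78.

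Sfrp4, the secreted WNT-binding protein, had 2760, 3220 and 44.5 CPM in WT (2010 ± 1720, n = 3), 456, 1150 and 3750 CPM in Fshb(+/-) (1780 ± 1730, n = 3) and 45.6, 38.6 and 72.7 CPM in Fshb(-/-) (52.3 ± 18, n = 3). WT replicate 3 lay among the Fshb(-/-) libraries. The difference between Fshb(-/-) and Fshb(+/-) was −5.09 ± 1.45 (edgeR adjusted p = 0.0493), just inside the threshold, and that between Fshb(-/-) and WT was −5.26 ± 1.47 (adjusted p = 0.0706).

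Parm1 had 30, 25.3 and 30.1 CPM in WT (28.4 ± 2.75, n = 3), 213, 36.3 and 39.7 CPM in Fshb(+/-) (96.5 ± 101, n = 3) and 29.8, 24.6 and 27.3 CPM in Fshb(-/-) (27.2 ± 2.63, n = 3). WT and Fshb(-/-) overlapped, and Fshb(+/-) replicate 1 stood far above every other library of the experiment. Fshb(-/-) differed from WT by −0.06 ± 0.64 (edgeR adjusted p = 0.965) and from Fshb(+/-) by −1.83 ± 0.65 (adjusted p = 0.0915), neither past the threshold. DESeq2 called the latter (adjusted p = 0.0364), and without Fshb(+/-) replicate 1 it was smaller, at −0.48, and passed edgeR's test (adjusted p = 0.0473).

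Between Fshb(-/-) and WT, 0 of the 5 members passed edgeR's test, against 7.87% of all genes tested. An unadjusted p under 0.05 was found for 4 members and for 4317 of all 17223 genes. DESeq2 called 3 members lower (Ptgfr, Sfrp4 and Prlr) and 2379 genes in all. WT replicate 3 decided edgeR's count: without it 4 members passed, and 1030 genes in all. The 4 were Akr1c18 at −8.20 (adjusted p = 0.0299), Ptgfr at −6.89 (adjusted p = 0.0116), Sfrp4 at −5.83 (adjusted p = 0.0134) and Prlr at −1.74 (adjusted p = 0.0427). Each was called in 1 of the 6 fits that left out 1 library, with edgeR adjusted p up to 0.29. The oviduct marker sum of WT replicate 3 was 41.9 CPM, against 26 and 27.8 CPM in the other WT libraries. Its theca marker sum was 551 CPM, against 751 and 1070 CPM. The part of these in the result was not tested. The groups failed to overlap in 1 member, Akr1c18, against 35.3% of all genes.

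Between Fshb(-/-) and Fshb(+/-), 3 members passed the test (Prlr, Ptgfr and Sfrp4, all lower in Fshb(-/-)), against 17% of all genes called in either direction and 7.9% called lower. DESeq2 called 4, Parm1 in addition. These calls were fragile: leaving out single libraries in turn gave 0 to 3 calls, with Ptgfr called in 1 of 6 such fits, Sfrp4 in 0 and Prlr in 2. The direction held in all 6 fits, with Ptgfr between −7.4 and −5.83, Sfrp4 between −5.54 and −3.93 and Prlr between −2.19 and −1.59. All 5 members had every Fshb(-/-) library below every Fshb(+/-) library, against 18.7% of all genes.

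Between Fshb(+/-) and WT, 0 members passed edgeR's test, against 0.0871% of all genes. Parm1 alone had an unadjusted p under 0.05, and DESeq2 called 0. The fitted differences were −1.63 ± 1.55 for Akr1c18, 0.51 ± 1.24 for Ptgfr, −0.17 ± 1.22 for Sfrp4, 0.58 ± 0.46 for Prlr and 1.76 ± 0.64 for Parm1, with adjusted p from 0.419 to 0.976. Without WT replicate 3 these were −2.21, −0.07, −0.75, 0.24 and 1.81 in the same order, so that the sign of Ptgfr turned, and 9 genes in all were called in place of 15. Parm1 was the 1 member whose groups did not overlap, against 15.3% of all genes. The comparisons with WT and with Fshb(+/-) share the same Fshb(-/-) libraries.

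Experiment 2 asked what the FSHB transgene changes in ovaries of the null genotype. All 5 members rose in the rescue libraries. Akr1c18, Ptgfr and Sfrp4 rose from at most 12.4 CPM to at least 21.4 CPM in every rescue library, Prlr from a mean of 369 CPM, and Parm1 by the smallest amount.

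Prlr had 415, 338, 363 and 361 CPM in Fshb(-/-) (369 ± 32.6, n = 4) and 534, 622, 1480 and 1700 CPM in rescue (1090 ± 594, n = 4). Rescue replicates 3 and 4 were well above replicates 1 and 2, and the groups did not overlap. The rise was 1.56 ± 0.40 (edgeR adjusted p = 0.0231).

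Ptgfr had 2.95, 0.621, 2.44 and 2.87 CPM in Fshb(-/-) (2.22 ± 1.09, n = 4) and 232, 360, 1120 and 1420 CPM in rescue (785 ± 580, n = 4). Rescue replicates 3 and 4 were again the highest. Ptgfr rose by 8.48 ± 0.92 (edgeR adjusted p = 0.000922).

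Akr1c18 had 0.153, 0.248, 0 and 0.287 CPM in Fshb(-/-) (0.172 ± 0.128, n = 4), which are 3, 6, 0 and 6 counts, and 150, 211, 21.4 and 76.4 CPM in rescue (115 ± 83.1, n = 4). The order within the rescue group was the other way round, with replicates 1 and 2 above replicates 3 and 4. The rise was 9.35 ± 1.13 (edgeR adjusted p = 0.00137), a fitted value that depends on the prior count because the Fshb(-/-) level is so low.

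Sfrp4 had 11.1, 3.19, 12.4 and 10.6 CPM in Fshb(-/-) (9.32 ± 4.15, n = 4) and 766, 1180, 2170 and 2810 CPM in rescue (1730 ± 927, n = 4). Rescue libraries kept the order seen in Ptgfr. Sfrp4 rose by 7.54 ± 0.69 (edgeR adjusted p = 0.000376).

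Parm1 had 22.6, 22, 24.3 and 23.1 CPM in Fshb(-/-) (23 ± 0.971, n = 4) and 26.5, 26.2, 38.6 and 46.6 CPM in rescue (34.5 ± 9.93, n = 4). The groups were separate but close. Parm1 rose by 0.58 ± 0.18 (edgeR adjusted p = 0.0393).

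The 5 of 5 members called higher stood against 15.8% of all genes called higher, and all 5 had every rescue library above every Fshb(-/-) library, against 16.8% of all genes. Akr1c18, Ptgfr and Sfrp4 passed in each of the 8 fits that left out 1 library, with an adjusted p of at most 0.00685. Prlr and Parm1 passed in 2 of the 8, with adjusted p up to 0.0646 and 0.102, and 3 members passed in total without any single Fshb(-/-) library or without rescue replicate 3 or 4. The sum of oviduct markers was 18.4 to 531 CPM in rescue and 28.8 to 347 CPM in Fshb(-/-) and overlapped between the groups.

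The rescue could be set against WT through the Fshb(-/-) libraries of each experiment. In a joint fit over 18255 genes, the rise from Fshb(-/-) to rescue exceeded the rise from Fshb(-/-) to WT by 1.70 ± 2.97 for Akr1c18, 2.15 ± 1.62 for Ptgfr, 2.26 ± 1.39 for Sfrp4, 0.14 ± 0.63 for Prlr and 0.51 ± 0.67 for Parm1. No member passed edgeR's test (0 of 5, with 0 at an unadjusted p under 0.05 and 0 by DESeq2), against 0.153% of all genes. These errors are wide, so a missed threshold here does not show that the rescue reached the WT level.

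**Figure D2:**
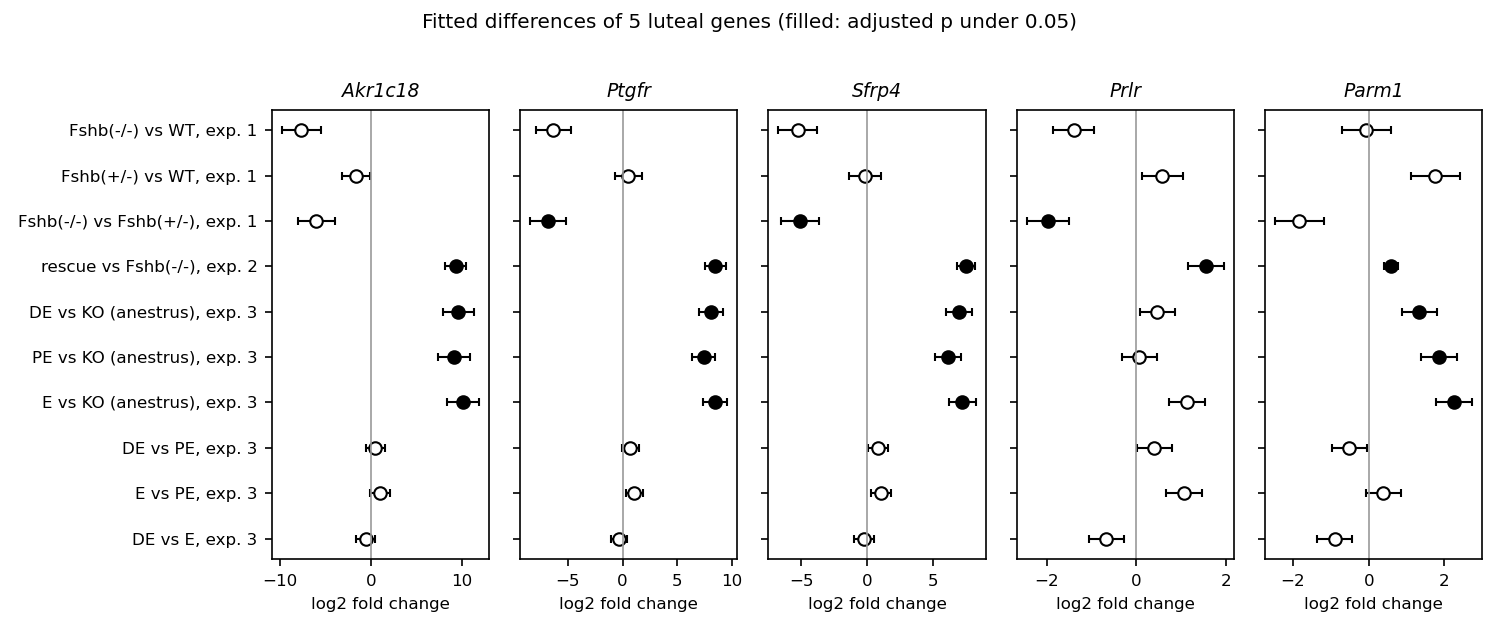
Fitted log2 fold change of each gene in 10 comparisons, first-named group against second, with bars of 1 SE, and each panel has its own horizontal scale. Filled points passed edgeR's test at an adjusted p under 0.05. Akr1c18, Ptgfr and Sfrp4 are filled far from 0 in rescue and in all 3 cycle stages against their null or KO (anestrus) group, and no point is filled between stages.

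Experiment 3 set 3 cycle stages against KO (anestrus), and against each other. Akr1c18, Ptgfr and Sfrp4 rose at each stage from levels of a few CPM or less, Parm1 rose at each stage by a smaller amount, and Prlr did not pass the test at any stage. No member differed between stages past the threshold.

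Akr1c18 had 0.302, 0.0712, 0 and 0.931 CPM in KO (anestrus) (0.326 ± 0.423, n = 4), which are 4, 1, 0 and 10 counts. It had 214, 5.34, 479 and 298 CPM in DE (249 ± 197, n = 4), 222, 158, 217 and 120 CPM in PE (179 ± 48.8, n = 4) and 33.3, 1040, 29.2 and 353 CPM in E (364 ± 477, n = 4). Every cycling library was above all KO (anestrus) libraries, PE was the tightest group, and E held both low values and the highest single value of the gene. The differences from KO (anestrus) were 9.64 ± 1.74 in DE (edgeR adjusted p = 0.00223), 9.16 ± 1.72 in PE (adjusted p = 0.00214) and 10.19 ± 1.75 in E (adjusted p = 0.00149).

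Ptgfr had 1.21, 1.28, 1.25 and 1.02 CPM in KO (anestrus) (1.19 ± 0.115, n = 4). It had 435, 19.7, 448 and 432 CPM in DE (334 ± 210, n = 4), 231, 176, 240 and 174 CPM in PE (205 ± 35, n = 4) and 154, 991, 72.9 and 488 CPM in E (426 ± 417, n = 4). The 3 other DE libraries were almost level, and only DE replicate 2 fell away from them. Ptgfr rose by 8.11 ± 1.10 in DE (edgeR adjusted p = 0.000323), 7.41 ± 1.07 in PE (adjusted p = 0.000436) and 8.47 ± 1.11 in E (adjusted p = 0.000217).

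Sfrp4 had 3.63, 6.76, 2.25 and 8.1 CPM in KO (anestrus) (5.18 ± 2.71, n = 4). It had 1070, 53.6, 643 and 924 CPM in DE (672 ± 448, n = 4), 701, 293, 283 and 224 CPM in PE (375 ± 219, n = 4) and 543, 1660, 146 and 825 CPM in E (793 ± 640, n = 4). DE replicate 2 and E replicate 3 were the lowest of their groups, and both still lay above all KO (anestrus) libraries. Sfrp4 rose by 7.02 ± 1.0 in DE (edgeR adjusted p = 0.000475), 6.18 ± 0.97 in PE (adjusted p = 0.000731) and 7.26 ± 1.01 in E (adjusted p = 0.000328).

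Prlr had 343, 413, 393 and 290 CPM in KO (anestrus) (360 ± 55.1, n = 4). It had 614, 313, 580 and 485 CPM in DE (498 ± 135, n = 4), 341, 746, 272 and 151 CPM in PE (377 ± 258, n = 4) and 879, 1130, 453 and 710 CPM in E (793 ± 285, n = 4). All E libraries were above KO (anestrus), whereas DE and PE overlapped it. The differences were 0.47 ± 0.39 in DE (edgeR adjusted p = 0.406), 0.07 ± 0.39 in PE (adjusted p = 0.911) and 1.14 ± 0.40 in E (adjusted p = 0.0617). DESeq2 called the last at 1.15 (adjusted p = 0.0149), and edgeR called it at 1.37 without E replicate 3 (adjusted p = 0.0311). That was the only call in 8 edgeR fits that each left out 1 library. Across those fits the difference ran from 0.92 to 1.37, with edgeR adjusted p up to 0.15.

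Parm1 had 25, 20.3, 19.5 and 18.9 CPM in KO (anestrus) (20.9 ± 2.78, n = 4). It had 64, 73.6, 36.6 and 38.5 CPM in DE (53.2 ± 18.5, n = 4), 38.1, 175, 46.5 and 43.3 CPM in PE (75.7 ± 66.3, n = 4) and 63.3, 68, 109 and 158 CPM in E (99.4 ± 43.9, n = 4). Every cycling library was above every KO (anestrus) library, and PE replicate 2 was far above the rest of its group. Parm1 rose by 1.34 ± 0.47 in DE (edgeR adjusted p = 0.0494), 1.86 ± 0.47 in PE (adjusted p = 0.0105) and 2.25 ± 0.48 in E (adjusted p = 0.00586). The PE rise was 1.03 without PE replicate 2, and the DE call, just inside the threshold, held in 1 of the 8 fits without a single library.

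Against KO (anestrus), 4 of 5 members were called higher in DE, where 13.5% of all genes were, 4 of 5 in PE, where 17.5% were, and 4 of 5 in E, where 8.98% were. Every stage library was above every KO (anestrus) library for 4 members in DE, 4 in PE and 5 in E, against 10.8%, 20.8% and 12.5% of all genes. The 3 comparisons share the same KO (anestrus) libraries, so the same baseline enters each of them. Without DE replicate 2, Akr1c18 stood at 10.04, Ptgfr at 8.51 and Sfrp4 at 7.40 in DE, and without E replicate 3 they stood at 10.61, 8.85 and 7.64 in E. Leaving out each library in turn gave 9.16 to 10.87, 7.96 to 8.51 and 6.74 to 7.40 in DE, in the same order. In E it gave 8.79 to 11.41, 7.62 to 8.85 and 6.61 to 7.64. Prlr in DE was 0.64 without DE replicate 2 (adjusted p = 0.294), and Parm1 in E was 2.24 without E replicate 3 (adjusted p = 0.00889).

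Oviduct markers were high in PE, in 3 of 4 DE libraries and in 1 E library, so their level was set beside the members. DE replicate 3 and E replicates 1, 2 and 4 had marker sums of 25.4, 13.5, 21.5 and 21.3 CPM, below the lowest KO (anestrus) library at 33 CPM. In those 4 libraries Akr1c18 had 479, 33.3, 1040 and 353 CPM, Ptgfr 448, 154, 991 and 488 CPM, and Sfrp4 643, 543, 1660 and 825 CPM, all above KO (anestrus). Parm1 had 36.6, 63.3, 68 and 158 CPM there, also above KO (anestrus). Prlr had 580, 879, 1130 and 710 CPM in these libraries, against at most 413 CPM in KO (anestrus). In the other cycling libraries Prlr ran from 151 to 746 CPM, on both sides of KO (anestrus). The part of the oviduct markers in the Prlr result was not tested. Adipocyte markers (4 genes) summed to 96.2 to 1220 CPM in DE, 238 to 1420 CPM in PE, 44.1 to 358 CPM in E and 23.7 to 263 CPM in KO (anestrus), and their part in the differences was not tested. The sum of 4 smooth muscle markers was 1370 to 3810 CPM in DE and 1740 to 3030 CPM in PE, against 695 to 1540 CPM in KO (anestrus) and 767 to 2150 CPM in E. The sum of 8 endothelium markers was lower in every null or KO (anestrus) library than in the other libraries of its experiment: 373 to 454 against 537 to 625 CPM in experiment 1, 353 to 387 against 443 to 611 CPM in experiment 2 and 365 to 409 against 422 to 626 CPM in experiment 3. Their part in the members' differences was not tested.

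Between stages, edgeR called 0 of 5 members in E against PE, in DE against PE and in DE against E, as it called 0% of all genes in each. Over all genes, the unadjusted p was under 0.05 for 3170, 407 and 1797 in that order, and DESeq2 called 363, 0 and 10. Libraries 3 of DE and E decided the count over all genes: without both, edgeR called 2656 genes in E against PE, 0 in DE against PE and 2750 in DE against E, and it still called 0 members in each. DESeq2 on all libraries also called 0 members in each. Of the members, 1 had an unadjusted p under 0.05 in E against PE and 0 in the other pairs. It was Prlr, which was higher in E than in PE by 1.07 ± 0.40 (edgeR adjusted p = 0.21). Without PE replicate 2, whose 746 CPM was the highest of its group, the Prlr difference was 1.64 (adjusted p = 0.0303), and without DE and E replicate 3 it was 1.26 (adjusted p = 0.0573). Of the 8 edgeR fits that left out 1 library, 1 called Prlr here, with adjusted p up to 0.425 in the others. Every pair of stages overlapped in all 5 members, while 0.944% of all genes did not overlap between DE and PE, 8.88% between E and PE and 2.94% between DE and E.

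By length-scaled level the members ranked differently in the groups labelled WT, Fshb(-/-) and KO (anestrus). In mean CPM per kilobase of exon, WT had 481 for Sfrp4, 234 for Akr1c18, 54.7 for Ptgfr, 40.8 for Prlr and 5.6 for Parm1. Fshb(-/-) of the same experiment had 15.4 for Prlr, 12.5 for Sfrp4, 5.37 for Parm1, 1.2 for Akr1c18 and 0.685 for Ptgfr. KO (anestrus) of experiment 3 had 23.5 for Prlr, 4.12 for Parm1, 1.24 for Sfrp4, 0.27 for Akr1c18 and 0.176 for Ptgfr. Prlr was thus at the top and Akr1c18 and Ptgfr at the bottom in both of these groups, while Sfrp4 ranked second in Fshb(-/-) of experiment 1 and below Parm1 in KO (anestrus). In E, Akr1c18 at 302 was above Sfrp4 at 190, but both E and WT means of Akr1c18 have an SD larger than the mean, so neighbours in these orders need not differ. Prlr is scaled by the union of its 12 transcripts, 15.34 kilobases, which understates its level if shorter isoforms prevail.

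Within experiment 3 the group means of Akr1c18, Ptgfr, Sfrp4 and Prlr ran in the order E, DE, PE and KO (anestrus), and those of Parm1 in the order E, PE, DE and KO (anestrus). Medians ran otherwise: DE was above E for Akr1c18 (256 against 193 CPM), Ptgfr (434 against 321 CPM) and Sfrp4 (784 against 684 CPM). DE was also above PE by median for Parm1 (51.2 against 44.9 CPM), and KO (anestrus) above PE for Prlr (368 against 306 CPM). Neighbouring stages overlapped in every member, and the step to KO (anestrus) was the one that passed the test, except for Prlr. Within experiment 1 the order of means was WT, Fshb(+/-) and Fshb(-/-) for Akr1c18 and Sfrp4, and Fshb(+/-), WT and Fshb(-/-) for Ptgfr, Prlr and Parm1. By median, WT was below Fshb(+/-) for Akr1c18 (17.2 against 78.1 CPM) and above it for Ptgfr (548 against 415 CPM). WT and Fshb(+/-) did not differ past the threshold in any member.

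Ptgfr and Sfrp4 moved together from library to library, and Akr1c18 followed them only in part. The counts of Ptgfr per 100 counts of Sfrp4 lay between 16.4 and 84.7 in the 22 libraries outside the Fshb(-/-) and KO (anestrus) groups, a 5.16-fold range. Counts of Akr1c18 per 100 counts of Sfrp4 lay between 0.623 and 76.6, a 123-fold range. WT replicate 1 had the lowest ratio, with 2760 CPM of Sfrp4 and 17.2 CPM of Akr1c18, and WT replicate 2 had 25.7 Akr1c18 counts per 100. Rescue replicates 1 to 4 had 19.5, 17.8, 0.988 and 2.72 Akr1c18 counts per 100, although replicates 3 and 4 had the most Sfrp4. PE had 31.6, 54, 76.6 and 53.7, and E had 6.13, 62.9, 20.1 and 42.8. Among libraries with abundant Sfrp4 and Ptgfr there were therefore some with little Akr1c18, in WT, rescue and E alike.

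**Figure D3:**
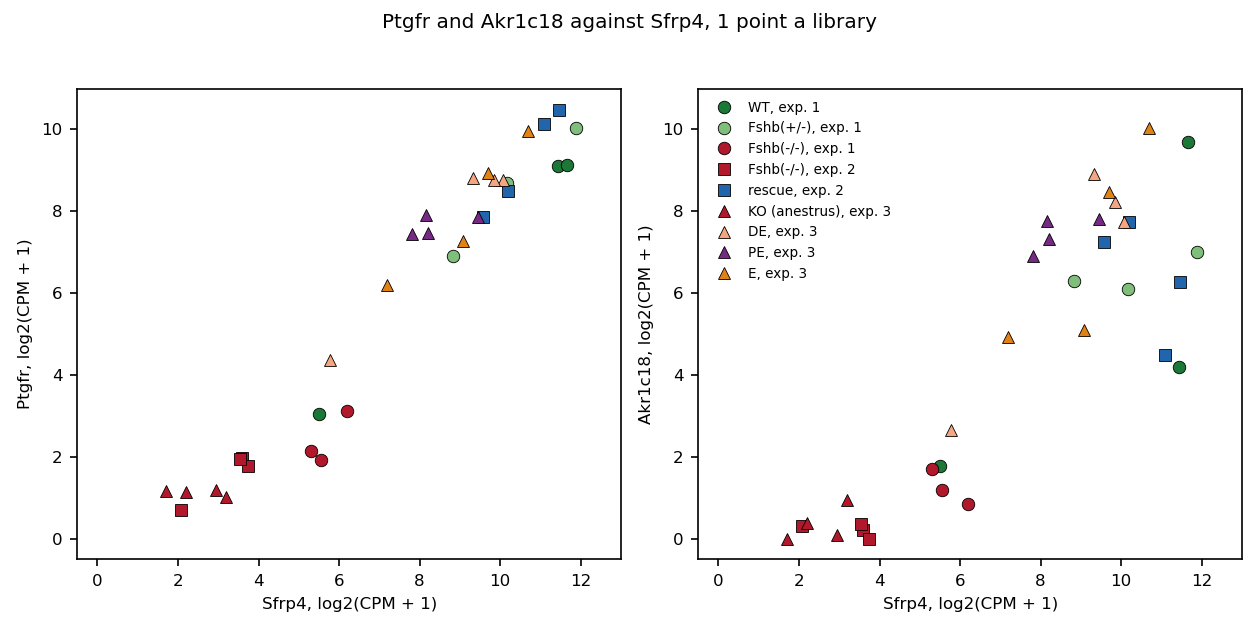
Level of Ptgfr (left) and Akr1c18 (right) against that of Sfrp4, all as log2(CPM + 1), with 1 point for each of 33 libraries and symbols for the 9 groups. Ptgfr keeps close to 1 line with Sfrp4, while Akr1c18 spreads widely among libraries with high Sfrp4, such as WT replicate 1 at 17.2 CPM and WT replicate 2 at 827 CPM.

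The same was seen as Pearson r of log2(CPM + 1) after centring within each experiment, given as a description over 33 libraries that share their groups and batches. Ptgfr and Sfrp4 had r = 0.99, each being the other's nearest of 12030 genes, and r = 0.97 over the 22 libraries outside the Fshb(-/-) and KO (anestrus) groups. Akr1c18 had r = 0.93 with Ptgfr and 0.92 with Sfrp4, which were 0.71 and 0.7 in the 22 libraries. Prlr had r = 0.72 with Ptgfr and 0.55 with Akr1c18 (0.66 and 0.26 in the 22). Parm1 had r = 0.49 with Ptgfr, 0.47 with Sfrp4 and with Akr1c18, and 0.44 with Prlr; in the 22 libraries these were −0.09, −0.14, −0.1 and 0.33.

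The genes most like each member were listed by the same measure. Akr1c18 was nearest to Onecut2 (0.98), Plekhg4 (0.95) and Tnc (0.94), which had 0.95, 0.86 and 0.84 in the 22 libraries. Ptgfr was next nearest to Wnt10b (0.98, and 0.91 in the 22) and Ephx2 (0.97 and 0.92), and these were also next for Sfrp4 (0.97 and 0.9 for Wnt10b, 0.96 and 0.92 for Ephx2). Among the genes nearest to Prlr were Arhgef11 (0.95) and March6 (0.95), with 0.94 for both in the 22. Parm1 was nearest to Maoa (0.95), Sbsn (0.94) and Lpin3 (0.93), which had 0.99, 0.93 and 0.94 in the 22 libraries. Genes were not ranked anew in the 22.

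A total of 6 lists of related genes, 83 genes in all, placed the members in their pathways. The lists were drawn up with earlier results of these data known. In rescue against Fshb(-/-), where 15.8% of all genes were called higher and 16.2% lower, progesterone production genes rose in 8 of 12 tested and fell in 0, with a median of 1.31 against 0 over all genes. Fdxr, the reductase that feeds electrons to the side-chain cleavage enzyme, rose by 1.20 ± 0.07 (edgeR adjusted p = 1.33e-05), its partner Fdx1 by 1.28 ± 0.15 (adjusted p = 0.000444) and Cyp11a1, the side-chain cleavage enzyme itself, by 1.93 ± 0.25 (adjusted p = 0.00111). In the same comparison prolactin signalling genes rose in 5 of 8 and fell in 1 (median 0.40). Cish, a STAT5-induced inhibitor of cytokine signalling, rose by 3.27 ± 0.25 (adjusted p = 8.88e-05), and Stat5b by 0.57 ± 0.11 (adjusted p = 0.0052).

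Prostaglandin genes rose in 3 of 19 and fell in 8 in rescue against Fshb(-/-) (median −0.29). Ptgs2, the inducible cyclooxygenase, fell by 2.90 ± 0.32 (edgeR adjusted p = 0.000228), Pla2g4a, the phospholipase that releases arachidonic acid, fell by 0.65 ± 0.07 (adjusted p = 0.000269) and Ptgis, prostacyclin synthase, fell by 1.69 ± 0.18 (adjusted p = 0.000479). Relatives of Akr1c18 rose in 3 of 4 tested and fell in 0, with Akr1c19 at 2.65 ± 0.46 from 0.222 to 1.44 CPM. SFRP and WNT genes rose in 5 of 12 and fell in 3, and luteal regression and cell death genes rose in 3 of 20 and fell in 4, a share close to that of all genes in each direction. Of these regression genes, Nr4a1, an immediate-early nuclear receptor known in the rat to act on the Akr1c18 promoter, fell by 1.44 ± 0.18 (adjusted p = 0.000777) while Akr1c18 rose, and Ednrb, an endothelin receptor, rose by 1.63 ± 0.18 (adjusted p = 0.000363).

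Between Fshb(-/-) and WT, where 4.53% of all genes were called higher and 3.34% lower, progesterone genes fell in 3 of 12 and rose in 0 (median −0.89 against −0.01 over all genes), with Hsd3b1 at −1.69 ± 0.21 (edgeR adjusted p = 0.00272). Prolactin signalling genes fell in 2 of 8 and rose in 0, with Cish at −3.17 ± 0.66 (adjusted p = 0.0295). Prostaglandin genes rose in 5 of 19 and fell in 0, with Ptgis at 1.69 ± 0.16 and Hpgd, the enzyme that inactivates prostaglandins, at 1.60 ± 0.15 (adjusted p = 0.00102 for both). SFRP and WNT genes fell in 2 of 12, regression genes in 1 of 20 and Akr1c18 relatives in 0 of 4, with none of these lists rising. Over all 6 lists edgeR called 13 of 75 genes and DESeq2 25, among them 6 higher and 3 lower prostaglandin genes and 6 lower progesterone genes. Without WT replicate 3, the prostaglandin counts became 3 higher and 1 lower, the progesterone count 2 lower and the regression counts 1 higher and 2 lower. Over all genes DESeq2 called 2379, and edgeR called 1030 without WT replicate 3.

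Between Fshb(-/-) and Fshb(+/-), where 9.1% of all genes were called higher and 7.9% lower, progesterone genes fell in 4 of 12, prolactin signalling genes in 2 of 8 and Akr1c18 relatives in 1 of 4, with 0 higher. Prostaglandin genes rose in 3 and fell in 4 of 19, SFRP and WNT genes rose in 1 and fell in 4 of 12, and regression genes rose in 1 and fell in 2 of 20. Sfrp2, a close relative of Sfrp4, stood at −5.46 ± 0.73 (edgeR adjusted p = 0.00241), 0.455 against 20.4 CPM. WT lay between them at 2.51 CPM. Against WT, Sfrp2 stood at −2.45 ± 0.71 in Fshb(-/-) (edgeR adjusted p = 0.0736) and 3.02 ± 0.61 in Fshb(+/-) (adjusted p = 0.16), neither called.

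Against KO (anestrus), 11.6% of all genes were called lower in DE, 16.3% in PE and 8.98% in E, beside the shares called higher given above. Progesterone genes rose in 3 of 12 in DE, 3 in PE and 7 in E and fell in 0, with medians of 0.65, 0.34 and 1.53. Hsd3b1, which makes progesterone from pregnenolone, rose by 0.97 ± 0.23, 0.97 ± 0.23 and 1.56 ± 0.23 (edgeR adjusted p = 0.00966, 0.00681 and 5e-04). Prolactin signalling genes rose in 1, 1 and 3 of 8 and fell in 0, with Stat5a at 0.60 ± 0.19, 0.83 ± 0.20 and 0.73 ± 0.19. Prostaglandin genes rose in 5, 6 and 4 of 19 and fell in 5, 5 and 4, with Ptgis at −1.68 ± 0.13, −1.86 ± 0.13 and −1.68 ± 0.13 and Akr1b3, an enzyme that can form prostaglandin F2 alpha, at −0.82 ± 0.11, −0.72 ± 0.11 and −0.80 ± 0.11.

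Relatives of Akr1c18 rose in 2, 3 and 1 of 5 tested in DE, PE and E, and SFRP and WNT genes rose in 4, 6 and 6 of 12 and fell in 2 each. Sfrp2 rose by 4.88 ± 0.71, 5.63 ± 0.72 and 5.22 ± 0.71 (edgeR adjusted p = 0.000512, 0.000173 and 0.000279). Regression and cell death genes rose in 2, 3 and 2 of 20 and fell in 3, 2 and 3, with Ednrb at 1.57 ± 0.22, 1.33 ± 0.22 and 1.37 ± 0.22 and Bcl2l11, a pro-apoptotic BCL2 relative, at −0.71 ± 0.13, −0.76 ± 0.14 and −0.71 ± 0.13. Between stages, edgeR called 0 of the 76 list genes tested in any pair. In E against PE, 22 of them had an unadjusted p under 0.05 and DESeq2 called 5, of which 4 were progesterone genes higher in E. In DE against E these counts were 17 and 0, and in DE against PE 1 and 0. Over all 16944 genes, the unadjusted p was under 0.05 for 3170 in E against PE, 1797 in DE against E and 407 in DE against PE. DESeq2 called 363, 10 and 0 of all genes in that order. Without DE and E replicate 3, edgeR called 15 list genes in E against PE, 20 in DE against E and 0 in DE against PE. Over all genes those fits called 2656, 2750 and 0. In E against PE and in DE against E, 5 of 12 progesterone genes were then higher in E. Between Fshb(+/-) and WT, edgeR called 0 of 75, 11 had an unadjusted p under 0.05 and DESeq2 called 3. Over all 17223 genes these counts were 15, 1783 and 363. Without DE replicate 2 the prolactin count in DE was 0 in place of 1, and without E replicate 3 the counts in E were 2 in place of 1 for Akr1c18 relatives and 1 lower in place of 2 for SFRP and WNT genes. Oviduct, adipocyte, smooth muscle and endothelium marker sums differed between groups as given above, and their part in the list counts was not tested.

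**Figure D4:**
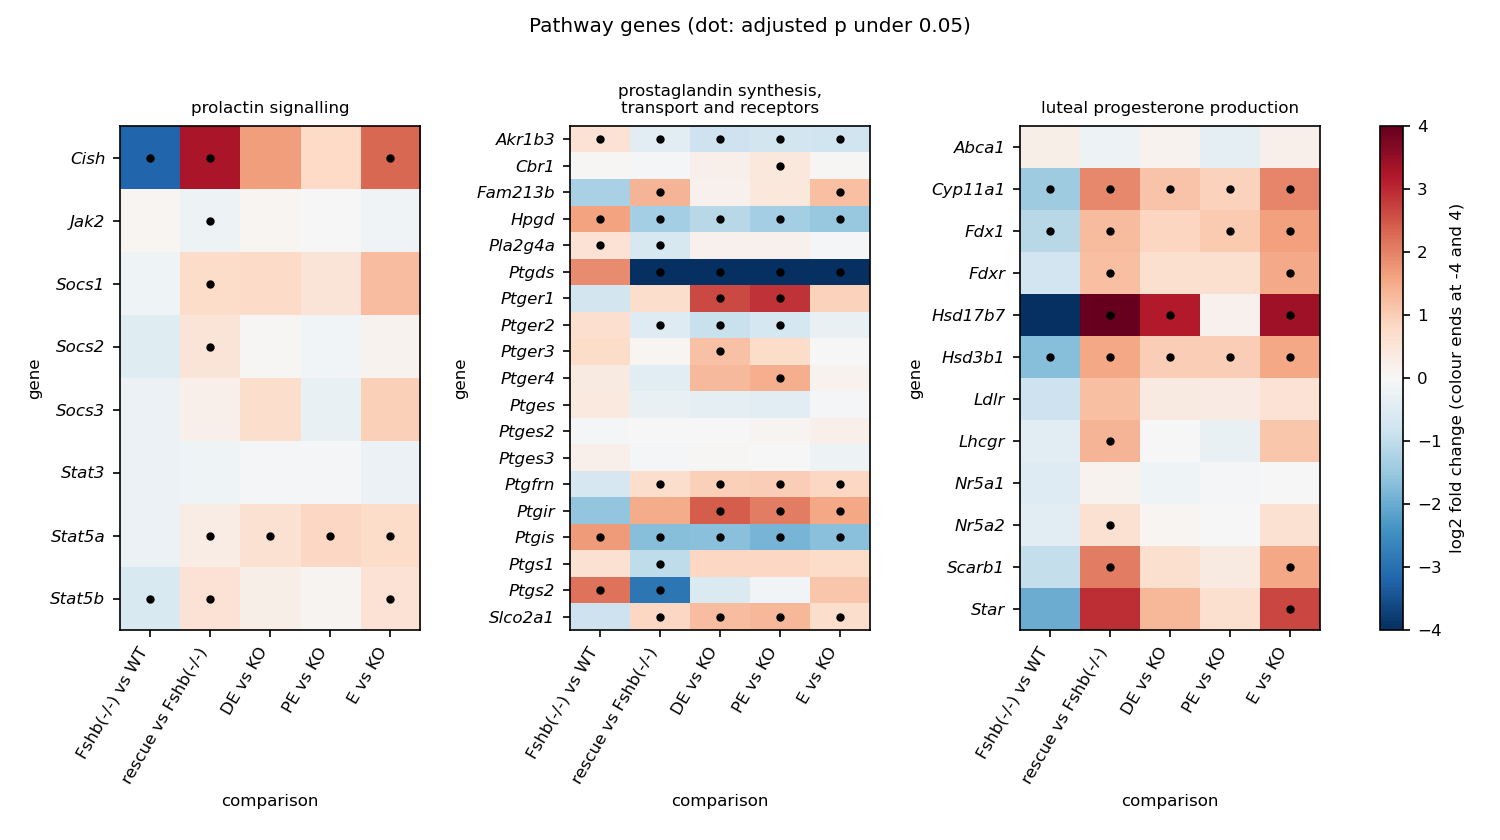
Fitted log2 fold change of the tested genes of 3 lists in 5 comparisons, as colour from blue (lower in the first-named group) to red (higher), with the colour ending at −4 and 4. A dot marks an edgeR adjusted p under 0.05. Progesterone genes have red dots only in rescue and cycling ovaries and blue dots only in Fshb(-/-) against WT, and Ptgis has the opposite colours.

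Sequence shared with other genes could affect the values, to a degree that was not tested. Of the 31-base runs in the annotated transcripts, 4.15% of those of Akr1c18 occur in another gene, most often Akr1cl. The share was 4.82% for Ptgfr, 1.1% for Sfrp4, 2.02% for Prlr and 0.139% for Parm1. In Fshb(-/-) of experiment 1 the mean of Akr1cl was 1560 CPM, against 1.45 CPM for Akr1c18. Whether Akr1cl reads entered the Akr1c18 value was not tested. Ptgfr exons overlap Gm43618 on the opposite strand, and since the strandedness of the libraries is not given in the sources used here, reads there cannot be told apart. Gm43618 had 0 to 126 counts, at most 12.5% of the Ptgfr count of the same library. Prlr exons overlap Gm21973 on the same strand, which had 0 to 34 counts, at most 0.324% of the Prlr count.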

How the data were processed

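Poly(A) RNA of whole mouse ovaries was sequenced, and the authors deposited 1 table of estimated counts per gene. The submitters' processing notes name Salmon, DESeq2 and the GRCm38 build, with no versions. Salmon's settings and the strandedness of the libraries were not given in the sources used here. Between 10.5% and 20.1% of the deposited values per library were not whole, and all were rounded. Gene symbols, coordinates and exon lengths came from GENCODE M21, which named 54094 of 54347 IDs. No 2 libraries of a group agreed within counting error (chi-square divided by its degrees of freedom, 5.65 to 73.6), and each was counted.

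Each experiment was fitted alone with edgeR 4.0.16 in R 4.3.3: filterByExpr by group, TMM, robust glmQLFit, glmQLFTest and Benjamini-Hochberg adjustment over the 17223, 16871 and 16944 genes tested, threshold 0.05. All 5 members passed the filter in each experiment. SE is the absolute log2 fold change divided by the square root of F. A joint fit over experiments 1 and 2 compared the rescue with WT. The steps were tested on simulated data.

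Alternatives were DESeq2 1.42.0, median-of-ratios scaling, no filter, a replicate block, leaving out each library, and leaving out replicate 3 of DE and of E together. List counts under these alternatives were added after seeing the data. Same-numbered libraries did not deviate together, so numbers only name libraries. All 5 members are named in every comparison, with the 3 genes of highest r with each member (mean of at least 5 CPM), and up to 3 called genes of smallest p per list. The members, lists and tests were chosen with earlier results of these data known. Of the 3 genes of highest r with Prlr, 1 is not reported here.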

Additional observations from a re-analysis of the deposited data

Results flagged for a closer look

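A total of 3 values stood apart from the other 3 libraries of their group by Dixon's test, among 30 sets of 4 values (5 genes in 6 groups); chance flags about 1 in 20. Parm1 had 175 CPM in PE replicate 2, against 46.5 CPM in the next library. Ptgfr had 19.7 CPM in DE replicate 2, against 432 CPM in the next library, and Akr1c18 and Sfrp4 were also lowest there, at 5.34 and 53.6 CPM. Sfrp4 had 701 CPM in PE replicate 1, against 293 CPM in the next library.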

How the results depend on the processing

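The rises of Akr1c18, Ptgfr and Sfrp4 in rescue against Fshb(-/-) and in DE, PE and E against KO (anestrus) passed the test under every alternative run. Parm1 in PE and in E against KO (anestrus) also passed under every alternative. The number of members called stayed at 4 in PE against KO (anestrus). It stayed at 0 in Fshb(+/-) against WT, DE against PE, DE against E and the joint fit. It moved elsewhere, between 3 and 4 in DE and between 4 and 5 in E against KO (anestrus). In Fshb(-/-) against WT it was 0, 3 by DESeq2 and 0 to 4 without a library; in Fshb(-/-) against Fshb(+/-) it was 3, 4 by DESeq2, 0 with no filter, 0 with the replicate block and 0 to 3 without a library. In rescue against Fshb(-/-) it was 5, 3 with no filter and 3 to 5 without a library; in E against PE it was 0, and 0 to 1 without a library. The replicate block took Prlr in rescue against Fshb(-/-) to 1.38 (adjusted p = 0.0568) and Parm1 in DE against KO (anestrus) to 1.29 (adjusted p = 0.0714), the latter also lost with no filter (adjusted p = 0.115). Same-numbered libraries had deviations with r from −0.17 to 0.14, −0.14 to 0.08 and −0.78 to 0.29 in the 3 experiments, so the block pairs nothing that the labels name.

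Signs reversed only in differences that had not passed the test. The replicate block gave 1.05 for Akr1c18 in Fshb(+/-) against WT, −0.07 for Prlr in PE against KO (anestrus) and −0.09 for Prlr in the joint fit. Without DE and E replicate 3, Akr1c18 in DE against PE was −0.06. Without single libraries, Fshb(+/-) against WT ran from −2.21 to 3.21 for Akr1c18, −0.48 to 0.98 for Ptgfr and −1.32 to 0.34 for Sfrp4, and Parm1 in Fshb(-/-) against WT from −0.14 to 0.01. DE against E ran from −1.06 to 0.85 for Akr1c18, −0.70 to 0.49 for Ptgfr and −0.58 to 0.41 for Sfrp4. DE against PE ran from −0.04 to 0.88 for Akr1c18 and −0.73 to 0.32 for Parm1, E against PE from −0.37 to 1.40 for Akr1c18, Prlr in PE against KO (anestrus) from −0.50 to 0.33 and Prlr in the joint fit from −0.21 to 0.52 (−0.01 and −0.12 without rescue replicates 3 and 4). The cause was not tested.

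Calls over all genes moved by more than 1.5 times without some single libraries. In Fshb(-/-) against WT they went from 1355 to between 456 and 597, but to 1030 without WT replicate 3 (2379 by DESeq2). In Fshb(-/-) against Fshb(+/-) they went from 2928 to 1362, 1888 and 1563 without Fshb(-/-) replicates 1, 2 and 3. In Fshb(+/-) against WT they went from 15 to 9 without WT replicate 3 (363 by DESeq2, 7 with the replicate block). In DE against KO (anestrus) they went from 4249 to between 2422 and 2808 without DE replicate 1 or 4 or any KO (anestrus) library. Other fits of DE against KO (anestrus) moved less, up to 5787. In E against KO (anestrus) they went from 3042 to 2024, 2020 and 1920 without KO (anestrus) replicates 1, 3 and 4. They went from 0 to as many as 1847 in E against PE and 1039 in DE against E, both without E replicate 3. Without DE and E replicate 3 together these last counts were 2656 and 2750. The joint fit went from 28 to 135 by DESeq2, 15 with the replicate block and 18 without rescue replicate 4 or Fshb(-/-) replicate 4 of experiment 2. Counts of 0 to 10 limit what can be said of Akr1c18 below about 1 CPM.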
